A study of Mus musculus with 30 samples.

Results

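The genes described here encode the proteins that mark replication origins and load the MCM helicase onto them: the 6 subunits of the origin recognition complex (Orc1 to Orc6), the loading factors Cdc6 and Cdt1, and Gmnn, the gene of the loading inhibitor geminin. They are 9 of 20558 protein-coding genes on mouse chromosomes 1 to 19, were taken by name, and were set against the initiation zones of replication. The zones come from an OK-seq library of wild-type E14TG2a cells, an established line of mouse embryonic stem cells. They were cultured in medium with LIF plus a GSK3 and a MEK inhibitor, and labelled with 10 µM EdU, a thymidine analogue, for 2 min. The series holds 30 samples in 18 groups, mostly SCAR-seq libraries of wild-type and MCM2-2A mutant cells. The other 29 samples were not analysed here, so there was 1 library, no replicate error and no test between conditions. The cell type could not be checked against markers, because the list of zones holds no expression values.

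The origin recognition complex binds DNA in late mitosis and G1, and Cdc6 and Cdt1 then help it to load MCM helicases as inactive double rings, a step called licensing. Licensing ends when S phase begins. Cdt1 is then destroyed or held by geminin, so that no stretch of DNA is replicated again in the same cycle. Initiation zones are the stretches in which some of the licensed helicases start forks. Okazaki fragments form on the lagging strand only, and their strand, which OK-seq records, tells where leftward forks give way to rightward ones. The deposited list gives for each of 2844 zones a breakpoint bin of 1 kb where the forks part, and an edge on either side; the part of a zone on either side of the breakpoint is called an arm. Arms and widths are the list's own distances between bins, so that a zone spans 1 kb more than its width. All positions are in mm10, the build of the RefSeq gene table (GRCm38.p6).

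Of the 9 genes, 4 had an annotated end inside an initiation zone: Orc2, Orc5, Cdt1 and Gmnn. The remaining 5, Orc1, Orc3, Orc4, Orc6 and Cdc6, lay wholly between zones. The share inside was 44.4%, against 32.4% of all protein-coding genes, and with so few genes each of them moves the share by 11.1 percentage points, so the count does not set the 9 apart from other genes. The same 4 genes were counted at limits of 5, 20 or 50 kb from a zone edge, where the shares of all protein-coding genes were 34.2%, 38.5% and 45.4%. By role, 2 of the 6 recognition complex genes were inside and 2 of the 3 genes of loading and its inhibition. From the nearer gene end to the nearest breakpoint, the distance ran from 4.39 kb at Orc2 to 711 kb at Cdc6. The median was 159 kb, against 129 kb over all protein-coding genes. Within 50 kb of a breakpoint lay 4 of the 9 (29.1% of all genes), within 200 kb 6 (62.8%) and within 500 kb 8 (87.2%), shares that came close to the background at the longer limits. Inside a zone the median distance of the 4 genes was 21.3 kb, and that of all genes inside zones 23.0 kb. The 5 genes outside had a median of 246 kb to the nearest zone edge, against 164 kb for all genes outside.

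**Figure D1:**
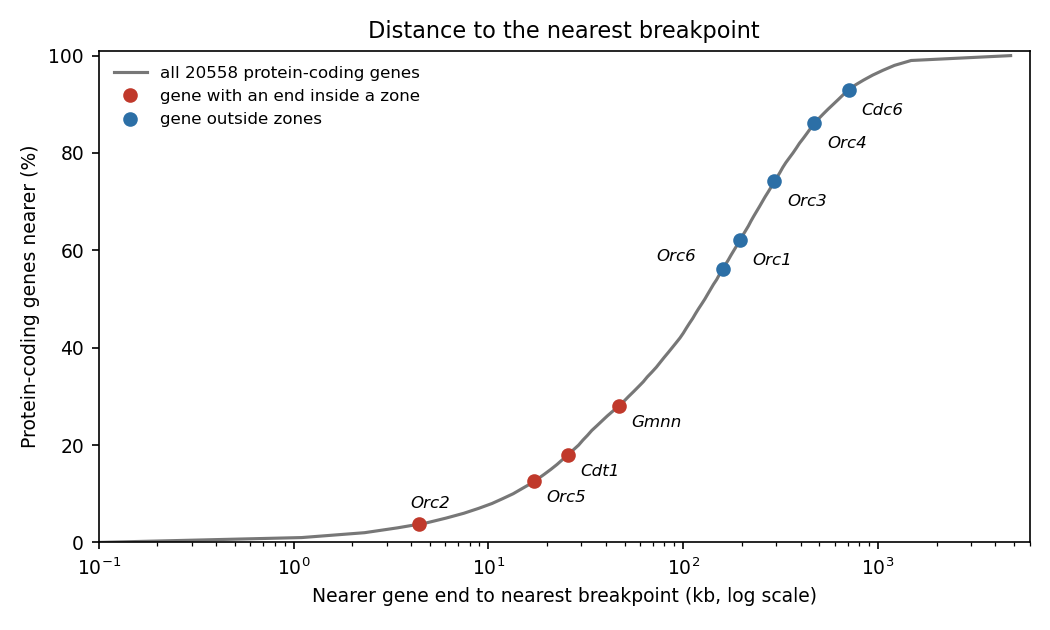
The curve gives, for each distance from the nearer gene end to the nearest breakpoint (kb, log scale), the percentage of the 20558 protein-coding genes that lie nearer; points are the 9 genes. Orc2, Orc5, Cdt1 and Gmnn (red, inside a zone) lie between 4.39 and 46.6 kb, and the 5 genes outside zones (blue) between 159 and 711 kb.

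No body of the 9 genes held the nearest breakpoint, as 3.98% of all genes did. In 7 of the 9 the gene lay to the left of its nearest breakpoint and in 2, Cdc6 and Cdt1, to the right. Of all protein-coding genes 47.8% lay to the left. Left and right follow the numbering of the chromosome and not the direction of transcription.

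**Figure D2:**
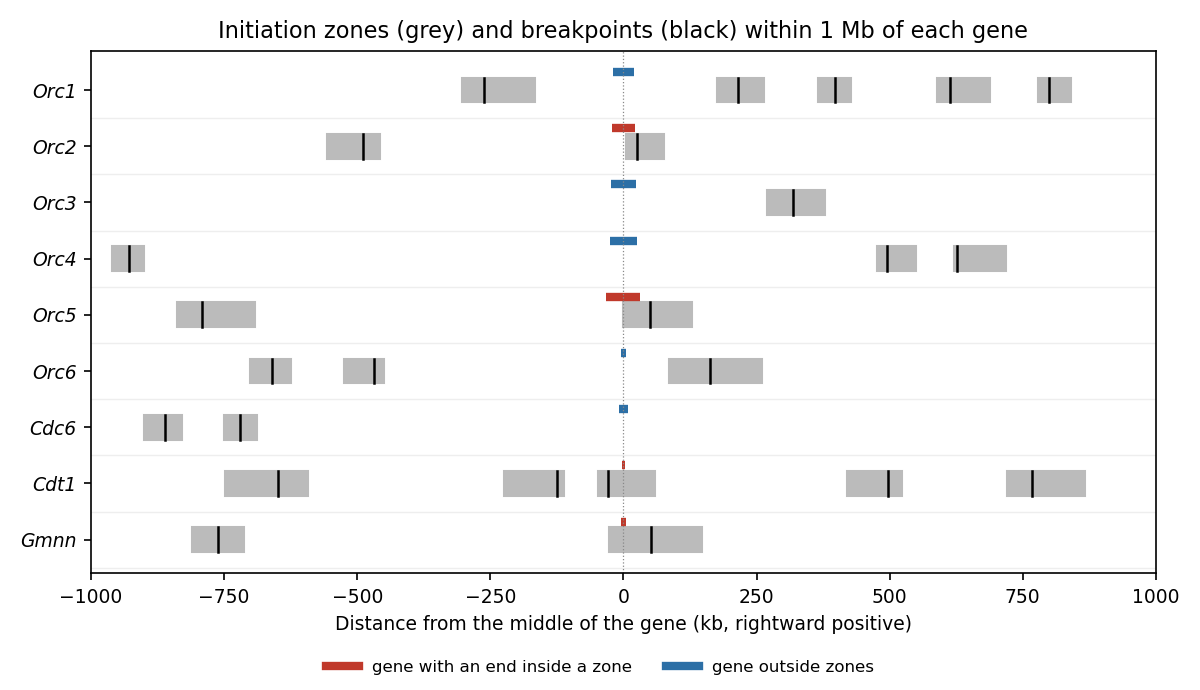
Each row shows the initiation zones (grey bars) and their breakpoints (black ticks) within 1 Mb of the middle of a gene, which is drawn to scale above the row (red, an end inside a zone; blue, outside). Cdt1 and Orc1 have 5 breakpoints each within 1 Mb of the gene, and Orc3 has 1.

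Orc2 was the gene nearest to a breakpoint. Its product is a core subunit of the complex. The gene (chr1:58462771-58505113, minus strand) spans 42.3 kb and is transcribed leftward. Its 5′ end lay 4.39 kb left of a breakpoint, and 3.70% of protein-coding genes were nearer to theirs. The zone (chr1:58488001-58561000) was narrow, 72 kb against a median of 112 kb over all zones, and 16.7% of zones were narrower. Its left arm of 21 kb was among the shortest, with 4.78% of left arms shorter, while the right arm measured 51 kb. The arm holds the first 17.1 kb of the gene (40.4% of its length), and the rest runs out past the left edge. The breakpoint itself fell in the lncRNA gene Gm15834, which adjoins Orc2 on the other strand and is named here after its position was seen. On the far side Fam126b, the only other protein-coding gene with an end in the zone, lay 13.3 kb away and was transcribed towards the breakpoint. The nearest edges of other zones were 437 kb to the left of Orc2 and 1101 kb to its right.

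Orc5 also lay with its 5′ end towards the breakpoint. It encodes an ATPase-fold subunit of the complex. The gene (chr5:22486480-22550338, minus strand) is the longest of the 9 at 63.9 kb. Its 5′ end lay 17.2 kb left of the breakpoint, and 12.5% of genes were nearer to theirs. The zone (chr5:22518001-22648000) was 129 kb wide, with arms of 49 and 80 kb. Its breakpoint fell in the lncRNA gene Gm42225, which, like Gm15834, is named here after its position was seen. Orc5 was the only protein-coding gene with an end in the zone. It covered 24.9% of the zone, and 50.6% of the gene lay inside. The surroundings were poor in genes, with 2 other protein-coding genes within 250 kb of its middle, and 6.54% of genes had fewer. The next zones lay 659 kb to the left and 1499 kb to the right.

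Cdt1, which brings the helicase to the recognition complex, sat in the most uneven of the 4 zones. The gene (chr8:122568015-122573130, plus strand) is 5.12 kb long and lay wholly in the right arm, with its 5′ end 25.5 kb from the breakpoint. The arms of the zone (chr8:122523001-122630000) measured 19 and 87 kb, a ratio of 4.58, and 96.9% of zones were less uneven. At 106 kb its width was near the median. This was the most crowded surrounding among the 4 together with that of Gmnn: 7 protein-coding genes had an end in the zone, and 94.5% of zones held fewer. The breakpoint fell in the body of Piezo1, the gene of a mechanically gated ion channel, whose nearer end lay 8.83 kb from it. Aprt, an enzyme gene of purine salvage, Galns, the gene of a lysosomal sulfatase, and Trappc2l, of a vesicle-tethering complex, followed at 32.1, 35.7 and 69.1 kb. The next breakpoint lay only 96 kb from that of the Cdt1 zone, and 6.47% of zones had a closer neighbour.

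Gmnn, whose product binds Cdt1 and blocks loading, lay in the widest of the 4 zones. The gene (chr13:24751845-24761937) is 10.1 kb long and lay wholly in the left arm, with its nearer end 46.6 kb from the breakpoint, or 58.9% of the way to the edge. The zone (chr13:24729001-24905000) was 175 kb wide, with 94.9% of zones narrower, and its arms measured 79 and 96 kb. It too held an end of 7 protein-coding genes. The breakpoint fell in BC005537, whose nearer end was 4.40 kb away, followed by the acyl-CoA thioesterase gene Acot13 at 9.46 kb, Tdp2, which removes trapped topoisomerase 2 from DNA ends, at 23.2 kb, and D130043K22Rik at 36.6 kb. Outside this zone there was none for 708 kb to the left of the gene and 1329 kb to its right.

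**Figure D3:**
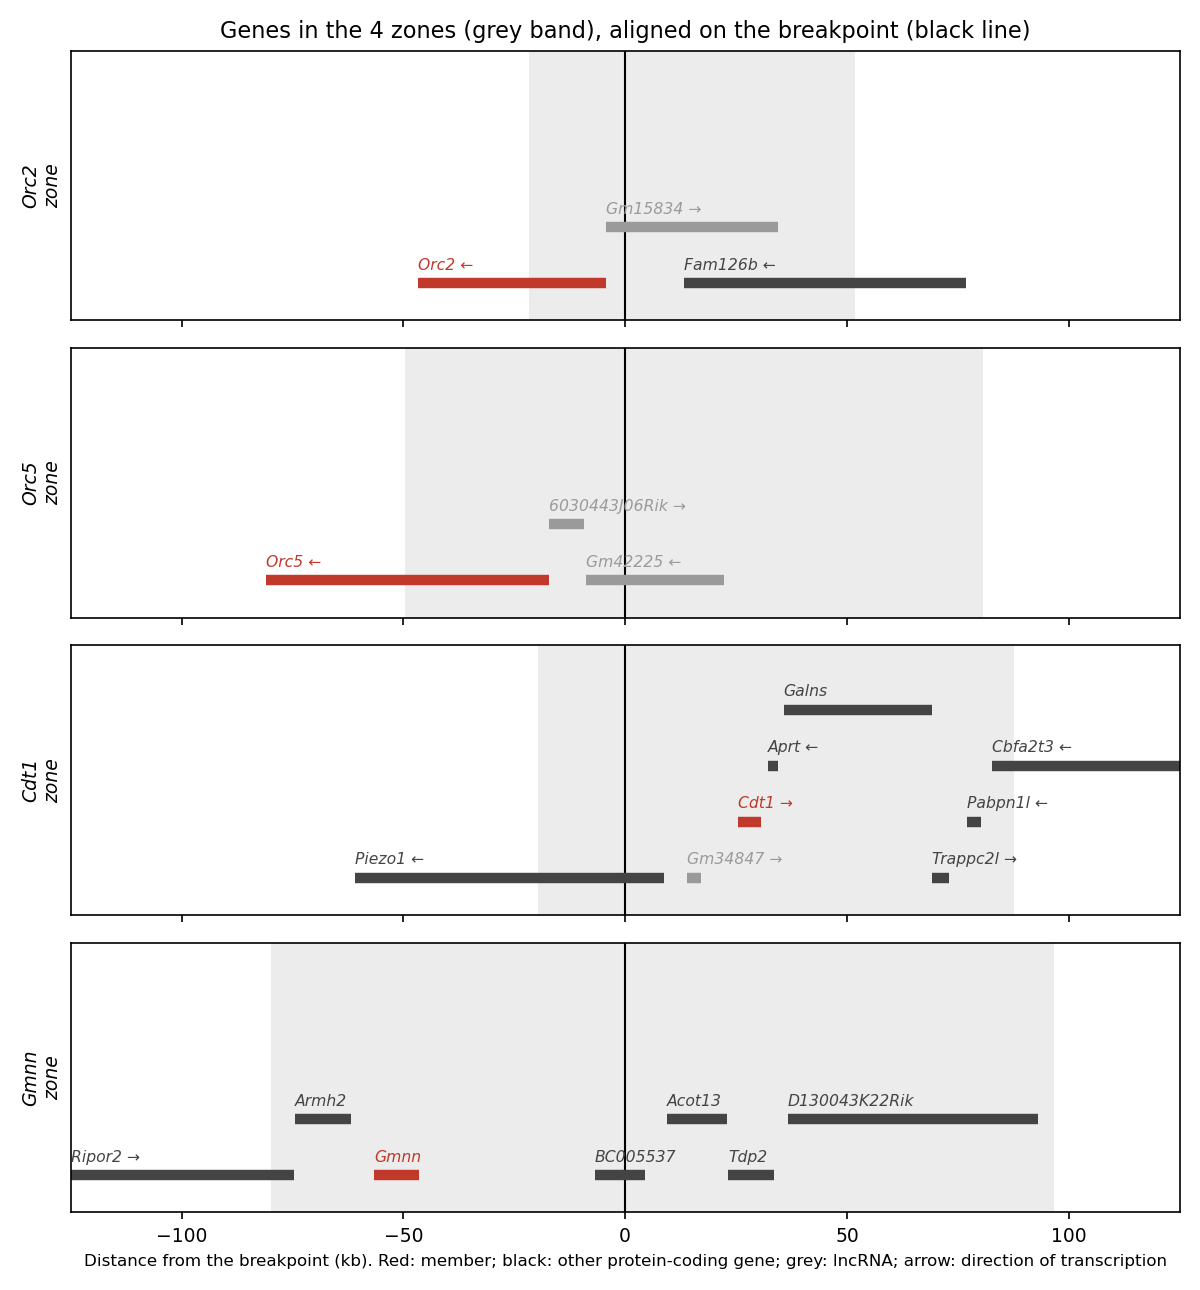
The 4 zones (grey bands) aligned on their breakpoints (black line, distance in kb), with gene bodies as bars (red, the gene described; black, other protein-coding genes; grey, lncRNA genes) and arrows for the direction of transcription where the promoter table gives it. Orc2 and Orc5 lie in the left arm and point left, Cdt1 lies in the right arm and points right, and the zones of Cdt1 and Gmnn hold 7 protein-coding genes each.

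In each of the 4 zones the right arm was the longer, as it was in 48.9% of all zones. The ratio of the longer to the shorter arm ran from 1.22 in the zone of Gmnn to 4.58 in that of Cdt1, around a median of 1.64 over all zones. None of the 4 zones reached the limit of 100 kb at which arms in the list stop. In all, 13 other protein-coding genes shared the 4 zones: 1 with Orc2, 6 with Cdt1, 6 with Gmnn and 0 with Orc5. A zone held an end of 2 protein-coding genes at the median.

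**Figure D4:**
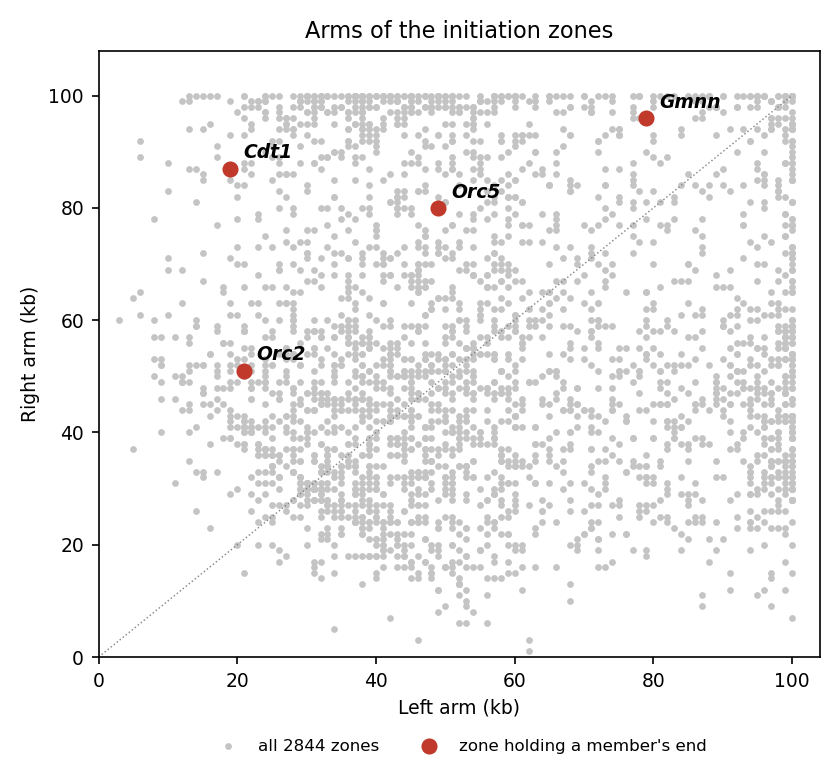
Length of the left arm against that of the right arm (kb) for all 2844 zones (grey) and for the 4 zones that hold an end of one of the genes (red); the dotted line marks equal arms. All 4 red points lie above the line, with Cdt1 (19 and 87 kb) farthest from it and Gmnn (79 and 96 kb) nearest.

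The direction of transcription relative to the forks could be given for Orc2, Orc5 and Cdt1, whose strand the promoter table holds. All 3 were transcribed away from the breakpoint, that is, in the direction in which forks from this breakpoint move through the arm. The start site lay at the end facing the breakpoint, 4.39, 17.2 and 25.5 kb from it. Of the 4733 protein-coding genes with an end inside a zone, on 1 side of its breakpoint and with a strand given, 60.0% were transcribed away. The 4 zones held an end of 17 protein-coding genes, these 3 included. Of the 17, 4 were transcribed away and 5 towards the breakpoint, 2 lay across it and 6 had no strand given. The 250 bases before these 3 start sites are shown because they are the only start sites of the 8 genes with a promoter entry that lay inside a zone. They are RefSeq sequence (GRCm38.p6), written 5′ to 3′ on the strand of the gene. Capitals mark the GC box letters GGGCGG and the ETS factor letters CCGGAAG on either strand.
Orc2 (chr1:58505110-58505359, minus strand): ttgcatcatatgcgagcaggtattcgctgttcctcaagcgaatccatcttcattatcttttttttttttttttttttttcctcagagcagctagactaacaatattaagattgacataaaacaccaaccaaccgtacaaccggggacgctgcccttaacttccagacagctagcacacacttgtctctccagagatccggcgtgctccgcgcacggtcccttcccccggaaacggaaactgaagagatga
Orc5 (chr5:22550339-22550588, minus strand): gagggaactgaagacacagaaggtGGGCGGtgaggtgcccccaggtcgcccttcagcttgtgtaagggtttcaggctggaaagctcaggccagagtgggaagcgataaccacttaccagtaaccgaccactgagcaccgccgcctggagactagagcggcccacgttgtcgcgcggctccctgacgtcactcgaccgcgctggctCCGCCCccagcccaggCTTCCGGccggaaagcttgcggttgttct
Cdt1 (chr8:122567765-122568014, plus strand): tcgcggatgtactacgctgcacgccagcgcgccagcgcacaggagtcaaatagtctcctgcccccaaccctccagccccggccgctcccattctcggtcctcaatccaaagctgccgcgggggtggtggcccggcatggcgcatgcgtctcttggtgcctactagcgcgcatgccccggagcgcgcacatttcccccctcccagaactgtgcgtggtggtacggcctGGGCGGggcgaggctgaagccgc

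The stretch before Orc2 held neither set of letters and was the poorest in G and C of the 8 promoters. Counted over 300 bases, from 250 before the start site to 50 from it on, GC content was 47.7% at Orc2, 64.0% at Orc5 and 66.7% at Cdt1, and the median of 16457 promoters of protein-coding genes was 56.7%. CpG pairs numbered 15, 23 and 32, against a median of 14. Among the genes outside zones, Orc6 and Orc3 had 30 and 29 CpG pairs, Orc1 24, Cdc6 19 and Orc4 4. The counts inside zones, 15 to 32, overlapped those outside, 4 to 30, and of the 8 promoters Orc4 alone lay below the median. Only 1 start site per gene was counted. The promoter table holds 2 other start sites for Orc4 and 1 for Orc2, so the values of these genes hold for the site used.

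Letters of the E2F site, bound by the factors that switch on S phase genes at the end of G1, were found in 4 of the 8 promoters: Orc1, Orc3, Cdc6 and Cdt1. The letters searched were TTTGGCGC, TTTCGCGC, TTTCCCGC and TTTGCCGC on both strands, which 2.95% of all promoters hold. Of the 4 promoters only that of Cdt1 lay in a zone, so matches occurred on both sides of the division by zones. These letters, like the others searched, were chosen after some of the sequences were seen, so the counts of matches are descriptions. The matches are shown with their neighbouring bases, 30 in all, with the match in capitals.
Orc1 (chr4:108579416-108579445, plus strand): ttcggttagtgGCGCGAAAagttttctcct
Orc3 (chr4:34614965-34614994, minus strand): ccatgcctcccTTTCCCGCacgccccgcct
Cdc6 (chr11:98908002-98908031, plus strand): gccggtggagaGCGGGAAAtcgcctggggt
Cdt1 (chr8:122568035-122568064, plus strand): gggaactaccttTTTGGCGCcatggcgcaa

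With the start site as 0, the match began at -27 in Orc1, at -41 in Orc3 and at -138 in Cdc6. In Cdt1 it began at 32, inside the transcribed part. In Orc1 and Cdc6 the letters run on the opposite strand, so the capitals show their reverse complement. ETS letters were found in Orc1, Orc3 and Orc5 (12.3% of all promoters), the CCAAT letters in Orc1, Orc2, Orc4 and Orc6 (39.1%), and GC box letters in 6 of the 8 (47.3%). The GC box letters were most frequent in Orc6, with 4 matches. A match is a description of the letters and not of a bound site.

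All 6 recognition complex genes had the boundary of another gene within 1000 bp of their start site, whether or not they lay in a zone. At Orc2 the boundary of Gm15834 lay 6 bp upstream of the start site. Rars2, which encodes the mitochondrial arginyl-tRNA synthetase, lay 15 bp from the start site of Orc3. The lncRNA gene 6030443J06Rik lay 75 bp from Orc5. The retromer gene Vps35 lay 115 bp from the start site of Orc6, and Prpf38a, a splicing factor gene, 118 bp from that of Orc1. Mbd5, of a methyl-CpG-binding domain protein, overlapped the start site of Orc4 by 735 bp. Neighbours so near were found for 21.7% of the 16457 protein-coding genes whose strand is given, for 26.1% of those inside zones and for 19.6% of those outside. In the 5 cases where the strand of the neighbour is given it was the opposite one, as in 86.9% of such pairs over all genes. The nearest boundary upstream lay 2573 bp from the start site of Cdc6 (Wipf2) and 8407 bp from that of Cdt1 (Gm34847). Within 250 bp it was 5 of the 8 genes, against 12.5%, and with protein-coding neighbours alone 4 within 1000 bp, against 13.8%. This measure was added after the positions were seen, so the count is a description. Measured from the annotated 5′ end of the gene, 4 of the 8 genes had such a neighbour, against 22.8% of all. Orc1 and Orc4 were not among them, since their longer annotated forms start inside the neighbour, more than 1000 bp past its boundary. The annotated form of Orc3 also starts inside its neighbour, but less than 1000 bp past the boundary.

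Orc6 and Orc1 were the nearest to a zone of the 5 genes outside. Orc6, the smallest subunit of the complex (chr8:85299632-85308279, plus strand), lay 80.7 kb left of a zone 174 kb wide and 446 kb right of another. The gap between these zones, 535 kb, was near the median of 508 kb over 2737 gaps, but 27 protein-coding genes lay wholly in it, and 97.4% of gaps held fewer. Orc1, the subunit that reads H4K20me2 on nucleosomes (chr4:108575705-108616030, plus strand), lay almost midway between zones, with an edge 146 kb to the left and 155 kb to the right. Its nearest breakpoint, at 195 kb, belonged to the zone on the right. That gap, at 341 kb, was the shortest of the 5, and 37.5% of all gaps were shorter.

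Orc3, Orc4 and Cdc6 lay in long stretches without a zone. Orc3, which pairs with Orc2 in the core of the complex (chr4:34566781-34614963, minus strand), was 246 kb from the zone on its right and 1235 kb from the zone on its left. Its gap of 1529 kb was longer than 87.0% of all gaps and held 9 protein-coding genes. Orc4, an ATPase-fold subunit (chr2:48902824-48952902, minus strand), was 451 kb from a zone on the right and 876 kb from a zone on the left. Its gap of 1377 kb was longer than 83.4% of gaps, and 3 protein-coding genes lay wholly in it. For 4 of the 5 genes outside, Cdc6 being the exception, the nearest breakpoint lay to the right.

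Cdc6 was the farthest of the 9 from any zone. It encodes the ATPase that joins the recognition complex in G1 (chr11:98907709-98923942, plus strand). The zones on either side were 681 kb to the left and 1398 kb to the right, and 93.0% of protein-coding genes lay nearer to a breakpoint. The gap of 2095 kb was longer than 94.2% of gaps. It was not a gene desert: 100 protein-coding genes lay wholly in it, where the median gap held 2 and 99.85% of gaps held fewer. By symbols that begin with Krt or Krtap, 50 of the 100 were keratin or keratin-associated protein genes, a count made after the gap was seen. Genes with other symbols were not assigned to a family, so the count is a lower limit. Within 250 kb of the middle of Cdc6 there were 17 other protein-coding genes, the same number as around Cdt1, which lay inside a zone.

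Gene length and the number of genes nearby differed among the 9 and were set beside the result. The 9 genes had a median length of 40.3 kb, against 17.6 kb over all protein-coding genes. An end lay inside a zone for 23.8% of all genes under 10 kb, 34.3% of those of 10 to 30 kb, 38.7% of those of 30 to 100 kb and 41.3% of longer ones. Of the 9, Cdt1 (inside) and Orc6 (outside) were under 10 kb, Gmnn (inside) and Cdc6 (outside) were of 10 to 30 kb, and Orc2 and Orc5 (inside) and Orc1, Orc3 and Orc4 (outside) of 30 to 100 kb. Each of these classes thus held genes of both kinds, and none of the 9 was longer than 100 kb. The number of other protein-coding genes within 250 kb had a median of 9 both in the 9 genes and over all. It ran from 2 at Orc4 and Orc5 to 17 at Cdc6 and Cdt1, so that each extreme was shared by a gene inside and a gene outside. Over all genes, an end lay inside a zone for 34.3% of those with 0 to 4 others nearby, 35.0% with 5 to 9, 31.0% with 10 to 19 and 27.6% with 20 or more. The part of length and of gene number in the result was not tested.

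The partners of licensing lay inside zones in 25 of 40 cases (62.5%, against 32.4% of all protein-coding genes), and none of them shared a zone with one of the 9. By group, 5 of 7 helicase genes, 5 of 9 partners of the complex on chromatin, 8 of 12 genes of the turnover of licensing factors, 4 of 7 kinase and cyclin genes and 3 of 3 E2F activator genes were inside, but 0 of 2 relatives of geminin. The median distance to a breakpoint was 36.3 kb over the 40 genes, against 159 kb for the 9. Both lists were chosen with earlier results of these data known, so these shares and distances are descriptions. The difference between the lists was not tested. Among the genes that degrade Cdt1 or other licensing factors, the ring-finger gene Rbx1 was nearest to a breakpoint at 2.13 kb and Skp2, which recruits Cdt1 to its ligase, farthest at 276 kb. E2f3 lay at 20.1 kb and E2f2 at 81.4 kb. Mcidas and Gmnc, which encode geminin relatives of multiciliated cells, lay at 221 and 373 kb. On chromatin, Kmt5b, which makes H4K20me2, lay at 15.2 kb and Obi1, a ubiquitin ligase gene of the recognition complex, at 669 kb. The helicase genes ran from Mcm4 at 5.40 kb to Mcm3 at 420 kb, and the kinase and cyclin genes from Cdk2 at 4.45 kb to Cdc7 at 1059 kb. Dbf4, the activator of Cdc7, held a breakpoint in its body. Where a direction could be given, 10 of the partners were transcribed away from the breakpoint of their zone and 13 towards it. Of all protein-coding genes measured in this way, 60.0% were transcribed away. The difference was not tested.

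**Figure D5:**
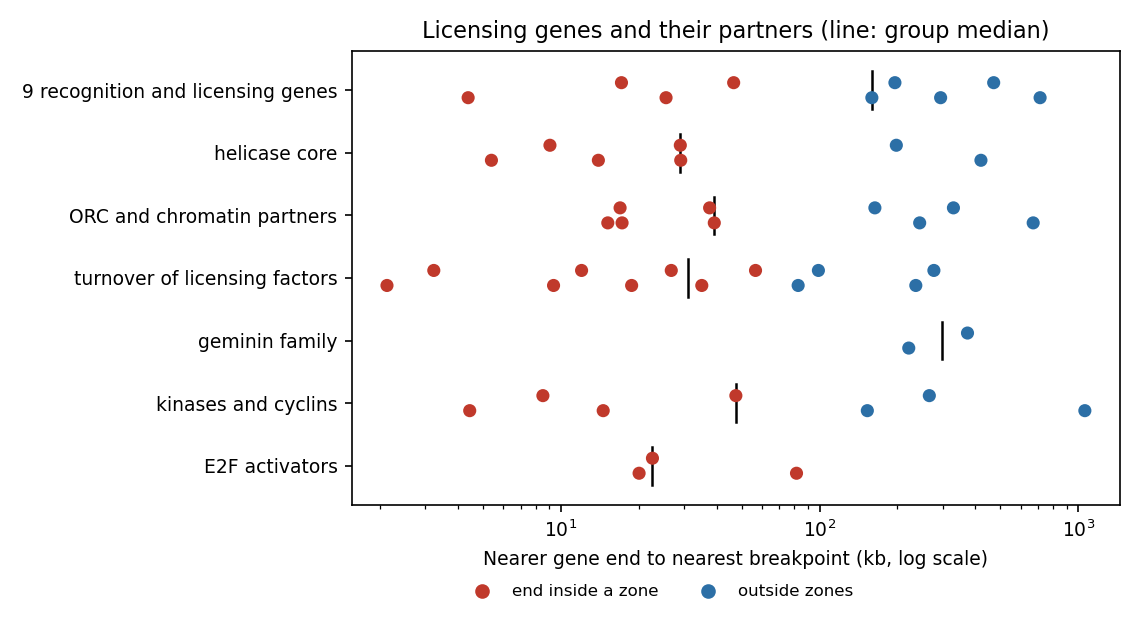
Distance from the nearer gene end to the nearest breakpoint (kb, log scale) for the 9 genes and for 40 partners in 6 groups; red, an end inside a zone; blue, outside; the black line is the median of the group. The 9 genes have a median of 159 kb, and the 3 E2F activators all lie inside zones.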

How the data were processed

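The deposited file lists initiation zones of 1 wild-type OK-seq library in mm10, as distances in bp between 1 kb bins. It holds no counts or signal, so the depth is unknown. The tools named, per the submitters' processing notes, are bcl2fastq, BWA 0.7.13, SAMtools, Picard 2.8.2, Bowtie and Trim Galore 0.4.2. Not given in the sources used here are the task of each tool, the calling of zones and the isolation of the fragments.

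Gene positions came from a RefSeq table (GRCm38.p6); 333 genes on scaffolds were left out, and the X and Y chromosomes are not analysed here. All 9 genes matched by symbol. Strand and start site came from the RefSeq promoter table, which has an entry for 8 of the 9 genes (not Gmnn) and for 16457 of 20558 protein-coding genes (80.1%). Of several entries the one nearest the annotated 5′ end was used. Distances run from the nearer gene end to the middle of the breakpoint bin. A gene counts as inside a zone if an annotated end lies within its edges. Overlapping zones were joined before gaps were measured. Genes nearby are those touching the 250 kb on either side of the gene's middle. Motif letters were matched exactly in 300 bases; they were chosen after some of the sequences were seen.

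The 9 genes and the list of partners were chosen with earlier results of these data known. Of 42 partners, Cul4b and Huwe1 had no match on chromosomes 1 to 19. All 9 genes were named, with up to 4 genes nearest the breakpoint in each zone and, per partner group, the nearest and farthest gene and any gene whose body holds a breakpoint. Percentages over all protein-coding genes are descriptions; no test was made. The script was tested on simulated data. Python 3.11.15, pandas 2.3.3, numpy 2.4.6, scipy 1.17.1 and matplotlib 3.10.9 were used.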

Additional observations from a re-analysis of the deposited data

How the results depend on the processing

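With zones below the median width left out, 2 of the 9 genes had an end in a zone, against 20.1% of all protein-coding genes. Within 20 kb of a zone there were also 2, against 23.4%. The median distance to a breakpoint was then 647 kb (323 kb over all genes). Left out as narrower than the median were the zones of Orc2 (72 kb) and Cdt1 (106 kb), and also the zones whose breakpoints lie nearest to Orc1, Orc3, Orc4 and Cdc6. In the central 50% of a zone 1 gene had an end, against 18.4% of all genes; those of Orc2 and Orc5 lay 1.14 and 0.162 kb outside it. Counting genes of all kinds, 26 other genes shared the 4 zones. The other 21 alternative values kept to set limits. Counts stayed within 1.5 times the reported count. Median distances stayed between the second lowest and second highest of the 9 genes, 17.2 kb (Orc5) and 471 kb (Orc4). That band is wide, so staying within it says little about how stable the median is. The median over all genes also moved with the setting. Without zones at the 100 kb limit it was 161 kb, against 159 kb for the 9 genes. In each of the other settings the 9 genes had the larger median. The 21 values covered the start site or midpoint in place of the nearer end, and zones merged or without those at the 100 kb limit. They also covered other distance limits, whole genes in the zone, and 4 settings of the neighbour at the start site. That measure, like its settings, was added after the data were seen. No paired analysis was possible because 1 library was analysed and no result comes from a test. With no counts in the list, how depth limits the zones was not measured.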
